A study of Mus musculus with 12 samples.

Results

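The 9 genes described here make, package, take up and break down the inhibitory transmitter GABA (Gad1, Gad2, Slc32a1, Slc6a11 and Abat), set the chloride gradient on which it acts (Slc12a2 and Slc12a5) or encode the subunits of the GABA-B receptor (Gabbr1 and Gabbr2). They were taken as every transcript probe that the array files name for one of these genes, which gave 19 of 41174 probes, for 9 of the 27398 gene names on the array. Of the 19 probes, 15 were tested because 1 or more groups had all 3 of their arrays well above background, a rule that 27671 probes met in the whole series. The other 4 probes, 1 each for Gad1, Abat, Gabbr1 and Gabbr2, did not meet it, and every gene kept at least 1 probe that was well above background on all 12 arrays.

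RNA came from the whole hippocampus of male C57BL/6N mice aged 12 weeks, 1 mouse per array. Every mouse, in all groups, had received 50 nl of 20 mM kainate, a glutamate receptor agonist, in the left dorsal hippocampus and had gone on to have recurrent seizures. After 3 weeks the mice were given 1 injection into the peritoneum, either lipopolysaccharide (LPS, a bacterial cell wall component that causes systemic inflammation) at 100 µg/kg or saline. The 4 groups of 3 mice were LPS at 4 h, saline at 4 h, LPS at 24 h and saline at 24 h after that injection. The labels do not say which hippocampus was taken, and mice without kainate are not analysed here, so LPS was compared with saline only in epileptic tissue.

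GABA is made from glutamate by 2 decarboxylases, GAD67 (Gad1) and GAD65 (Gad2), is loaded into synaptic vesicles by the vesicular transporter VGAT (Slc32a1), is cleared into astrocytes by the transporter GAT3 (Slc6a11) and is degraded by GABA transaminase (Abat). Whether opening of GABA-A receptors hyperpolarises a neuron depends on its internal chloride, which the cotransporter NKCC1 (Slc12a2) brings in and the neuronal cotransporter KCC2 (Slc12a5) carries out; the balance of these cotransporters is much studied in the epileptic hippocampus. GABA-B receptors are slow G protein-coupled receptors that need both GABA-B1 (Gabbr1) and GABA-B2 (Gabbr2) to reach the cell surface and signal.

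Levels are given as log2 of the processed intensity relative to the 75th percentile of the same array, so a difference of 1 is a change of 2-fold, and levels of different probes are not comparable. That 75th percentile was 669 to 739 on LPS 4 h arrays against 372 to 396 on saline 4 h arrays, and 722 to 955 on LPS 24 h arrays against 740 to 862 on saline 24 h arrays. All 4 h arrays were scanned in 1 run and all 24 h arrays in another, so time and scan run cannot be told apart. Each of the 6 slides held 1 LPS and 1 saline array of the same time. Arrays of the same group differed little, with a median SD per probe of 0.05 to 0.07 in log2 units, and 0 spots were saturated. Prox1, Neurod6 and Camk2a, markers of hippocampal granule and pyramidal cells, were well above background on all 12 arrays.

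At 4 h after LPS, the inward chloride cotransporter Slc12a2 was 2.48-fold higher than in saline and the outward cotransporter Slc12a5 was 1.75-fold lower. Gad1 was 1.52-fold lower, Slc6a11 was 1.35-fold higher and Abat was 1.23-fold higher, each by its brightest probe. Of the 15 probes, 12 passed the test (limma, Benjamini-Hochberg adjusted p under 0.05), 7 higher and 5 lower, where 71.2% of all tested probes passed, 31.4% higher and 39.8% lower. The share of the members is therefore near that of the whole array. Their median difference was 0.11 log2 units, against -0.09 for all tested probes. LPS and saline arrays did not overlap for 14 of the 15 probes, against 74.7% of all probes.

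At 24 h after LPS, no member probe was higher and 7 of 15 were lower, in Slc32a1, Slc6a11, Abat, Slc12a5, Gabbr1 (2 probes) and Gabbr2. Both GABA-synthesising enzymes and Slc12a2 did not pass the test at that time. Over the whole array 42.9% of probes passed at 24 h, 19.1% higher and 23.7% lower. LPS and saline arrays did not overlap for 7 of the 15 member probes at 24 h, against 54.4% of all probes. The median difference of the members was -0.14, against -0.02 for all tested probes. The response at 24 h minus that at 4 h passed for 12 of the 15 probes, 4 higher and 8 lower, where 65.8% of all tested probes passed, 36.9% higher and 29% lower. On each of the 3 slides of a time, the LPS minus saline difference had the sign of the fit for 12 of the 12 probes called at 4 h and for 7 of the 7 called at 24 h. The LPS and saline arrays of these probes did not overlap, so any pairing of arrays gives that sign and the slides add no separate support.

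**Figure D1:**
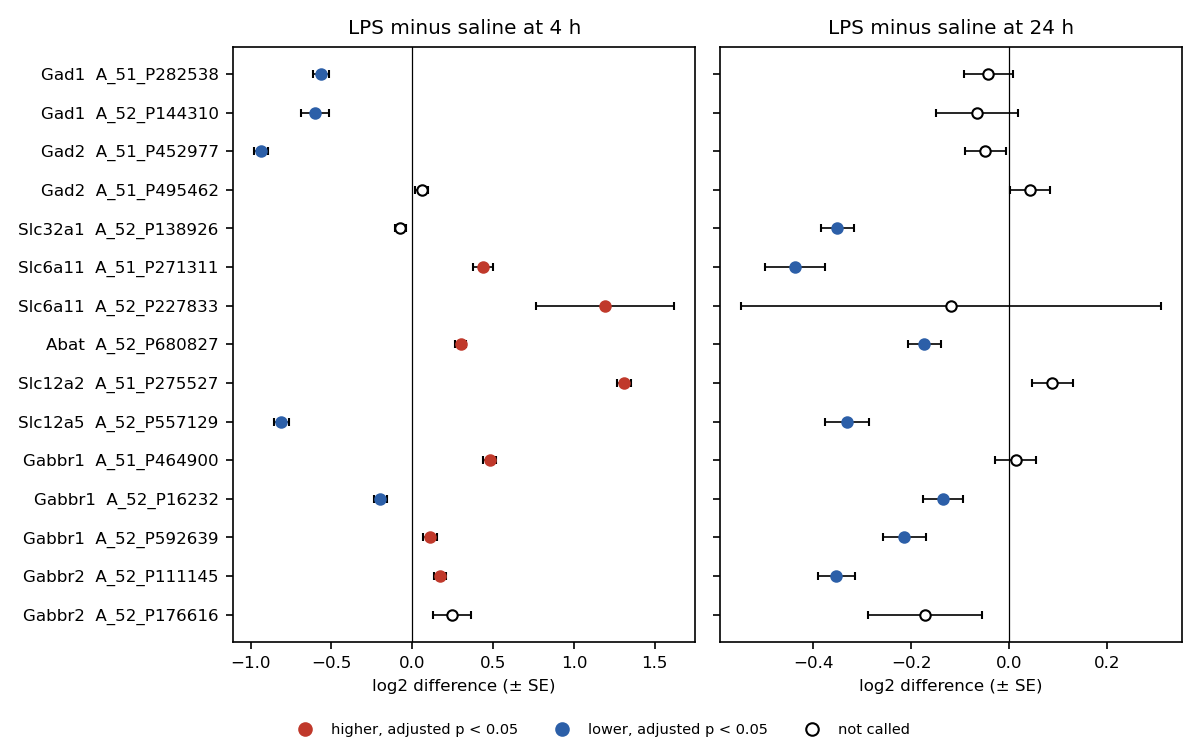
LPS minus saline difference (log2, points with SE of the fit, 3 arrays per group) of each tested member probe at 4 h on the left and at 24 h on the right, with filled points for probes that passed at an adjusted p under 0.05. Slc12a2 stands at 1.31 on the right end of the 4 h panel, and every filled point of the 24 h panel lies below 0.

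The enzymes of GABA synthesis come first. The brightest Gad1 probe (A_52_P144310, chr2:70439699-70439758, mm9) read 2.25, 2.20 and 1.97 on the LPS 4 h arrays against 2.61, 2.80 and 2.81 on the saline 4 h arrays. All LPS arrays were below all saline arrays, a difference of -0.60 ± 0.08 (SE, n = 3 each; limma adjusted p = 1e-04). At 24 h this probe read 3.101, 3.097 and 2.93 after LPS against 3.15, 3.06 and 3.13 after saline. These arrays overlapped, with a difference of -0.07 ± 0.08 (limma adjusted p = 0.572). A second Gad1 probe, A_51_P282538, starts 98 bases away and gave -0.56 ± 0.05 at 4 h (limma adjusted p = 3.59e-06) and -0.04 ± 0.05 at 24 h (limma adjusted p = 0.531). The lower Gad1 level at 4 h therefore appeared on both probes and, as the values at both times show, was not detected at 24 h; the difference between the times itself passed the test on both (0.54 ± 0.12, limma adjusted p = 0.00268, for the brightest). Before scaling, the intensities at 4 h ran the other way: A_51_P282538 had 3320 to 3655 on LPS arrays against 2738 to 2897 on saline arrays, without overlap, and A_52_P144310 had 2619 to 3509 on LPS arrays against 2267 to 2780 on saline arrays, with overlap. The lower Gad1 level at 4 h is thus a level relative to the 75th percentile, which was higher on the LPS 4 h arrays. In whole tissue, fewer cells of a type and less RNA per cell cannot be told apart, which holds for every difference given here.

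Gad2 has 2 tested probes that gave different answers at 4 h, and their first 30 bases are shown because the reading of this gene depends on which is used. Both lie on chromosome 2 of mm9 and both are assigned to the same Gad2 transcript by the files, with starts 3235 bases apart.
Gad2 A_51_P452977, chr2:22545860-22545918: tttgtaatcacctcactcatcaaaactgtt
Gad2 A_51_P495462, chr2:22549095-22549154: agtaacaggacaaagaagcaaaaacatcaa
The brightest probe, A_51_P495462, read 1.41, 1.41 and 1.37 on LPS 4 h arrays against 1.40, 1.30 and 1.32 on saline 4 h arrays. These overlapped, with a difference of 0.06 ± 0.04 (limma adjusted p = 0.226). The probe A_51_P452977 read -0.02, -0.01 and -0.05 on LPS 4 h arrays against 0.90, 0.90 and 0.92 on saline 4 h arrays. It was lower on every LPS array, with a difference of -0.93 ± 0.04 (limma adjusted p = 2.97e-08), which is 1.91-fold. Before scaling, the intensities of A_51_P452977 at 4 h were 645 to 730 on LPS arrays against 693 to 748 on saline arrays and overlapped. Those of A_51_P495462 were higher, at 1727 to 1961 on LPS arrays against 951 to 989 on saline arrays. The lower level of A_51_P452977 at 4 h is thus relative to the scaling value of each array, which was higher on the LPS 4 h arrays. At 24 h neither passed: A_51_P495462 gave 0.04 ± 0.04 (limma adjusted p = 0.437) and A_51_P452977 gave -0.05 ± 0.04 (limma adjusted p = 0.387).

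Within each array, the log2 ratio of A_51_P495462 to A_51_P452977 was higher after LPS at 4 h by 0.99 ± 0.03 with no overlap, and scaling an array by 1 factor does not alter such a ratio. An exact two-sided permutation test gave p = 0.1, the smallest that 3 against 3 arrays allow. At 24 h the same ratio differed by 0.09 ± 0.08 and the arrays overlapped. The ratio of the brightest Gad1 probe to the brightest Gad2 probe was lower after LPS at 4 h, at 0.84, 0.78 and 0.60 on LPS arrays against 1.21, 1.503 and 1.49 on saline arrays. That is a difference of -0.66 ± 0.12 with no overlap (exact permutation p = 0.1), against -0.11 ± 0.09 with overlap at 24 h. Against the other Gad2 probe, A_51_P452977, the same ratio ran the other way, at 2.27, 2.21 and 2.02 on LPS 4 h arrays against 1.71, 1.897 and 1.894 on saline 4 h arrays. That is higher after LPS by 0.33 ± 0.10 with no overlap (exact permutation p = 0.1), and at 24 h it overlapped (-0.02 ± 0.10). The direction of Gad1 relative to Gad2 at 4 h therefore depends on the Gad2 probe.

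**Figure D2:**
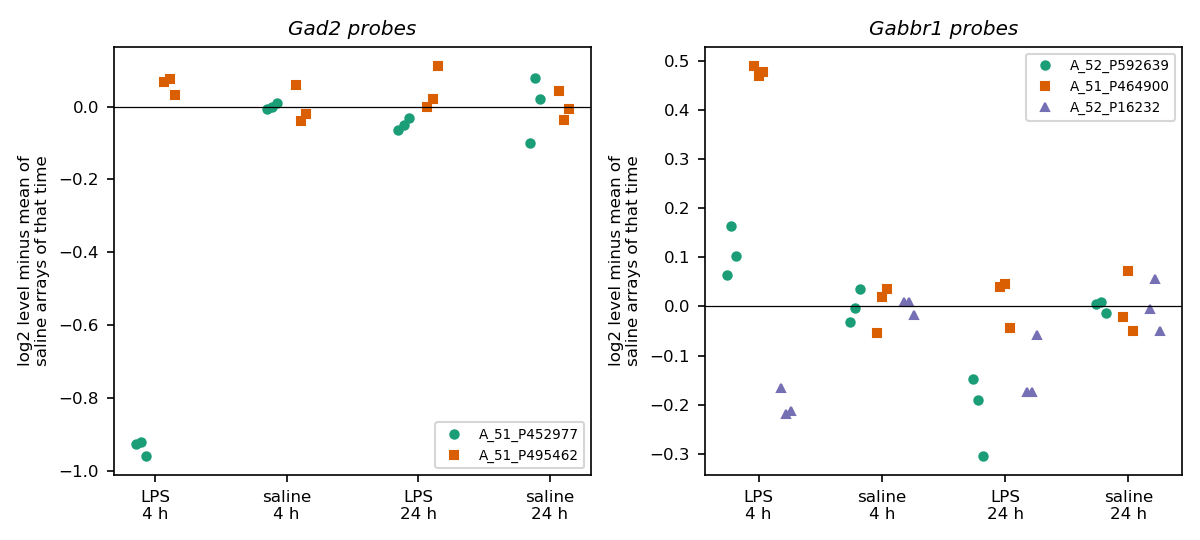
Each array's level (log2) minus the mean of the saline arrays of that time, for the tested probes of Gad2 on the left and Gabbr1 on the right, with 1 symbol per probe and LPS left of saline at each time. At 4 h the Gad2 probes separate by 0.99 and the Gabbr1 probes lie on both sides of 0, while the saline arrays lie near 0 by construction.

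Slc32a1 encodes VGAT, the transporter that fills inhibitory vesicles and so marks GABA-releasing terminals. Its probe (A_52_P138926, chr2:158441324-158441383, mm9) read 5.39, 5.42 and 5.40 on LPS 4 h arrays against 5.50, 5.47 and 5.47 on saline 4 h arrays. The arrays did not overlap, but the difference of -0.07 ± 0.03 missed the threshold (limma adjusted p = 0.0762). Its sign depended on the scaling: quantile normalization gave 0.32 and the deposited matrix 0.34, both past the threshold. At 24 h the LPS arrays read 5.39, 5.35 and 5.31 against 5.71, 5.64 and 5.74 on saline arrays. Slc32a1 was lower on every LPS array, with a difference of -0.35 ± 0.03 (limma adjusted p = 3.17e-05), or 1.28-fold, and it stayed lower and past the threshold under all 14 alternative settings, from -0.43 to -0.13.

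Slc6a11 encodes GAT3, which takes GABA up mainly into astrocytes. Its brightest probe (A_51_P271311, chr6:114199514-114199573, mm9) read -2.12, -2.05 and -2.001 on LPS 4 h arrays against -2.63, -2.37 and -2.48 on saline 4 h arrays. It was higher on every LPS array, by 0.44 ± 0.06 (limma adjusted p = 1e-04). At 24 h it read -1.41, -1.47 and -1.40 on LPS arrays against -0.99, -1.005 and -0.98 on saline arrays. It was lower on every LPS array, with a difference of -0.44 ± 0.06 (limma adjusted p = 0.000331), so the direction at 24 h was opposite to that at 4 h. The difference between the times was -0.87 ± 0.09 (limma adjusted p = 1.1e-05). With normexp background correction neither call held, at 0.18 for 4 h and -0.35 for 24 h, and with the mean of the 2 probes of the gene the call at 24 h was lost, at -0.28 (limma adjusted p = 0.391). A dim second probe, A_52_P227833 (chr6:114084610-114084669, mm9), was not well above background on any saline 4 h array. It was at least 1.32-fold higher after LPS at 4 h (limma adjusted p = 0.0302, against saline signals at background). That call was lost in 3 of the 12 fits that left out 1 array, and normexp gave -0.01. At 24 h the probe gave -0.12 ± 0.43 (limma adjusted p = 0.855).

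Abat encodes GABA transaminase, the mitochondrial enzyme that degrades GABA in neurons and glia. Its probe (A_52_P680827, chr16:8621437-8621496, mm9) read 3.43, 3.43 and 3.35 on LPS 4 h arrays against 3.07, 3.13 and 3.11 on saline 4 h arrays. It was higher on every LPS array, by 0.30 ± 0.03 (limma adjusted p = 2.16e-05). At 24 h it read 3.83, 3.84 and 3.82 on LPS arrays against 4.00, 3.97 and 4.04 on saline arrays. It was then lower on every LPS array, with a difference of -0.17 ± 0.03 (limma adjusted p = 0.00253). The difference between the times was -0.47 ± 0.05 (limma adjusted p = 1.35e-05), and with normexp background correction the value of -0.18 at 24 h no longer passed. Slc6a11 and Abat, a transporter and an enzyme that remove GABA, thus were both higher at 4 h and both lower at 24 h.

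**Figure D3:**
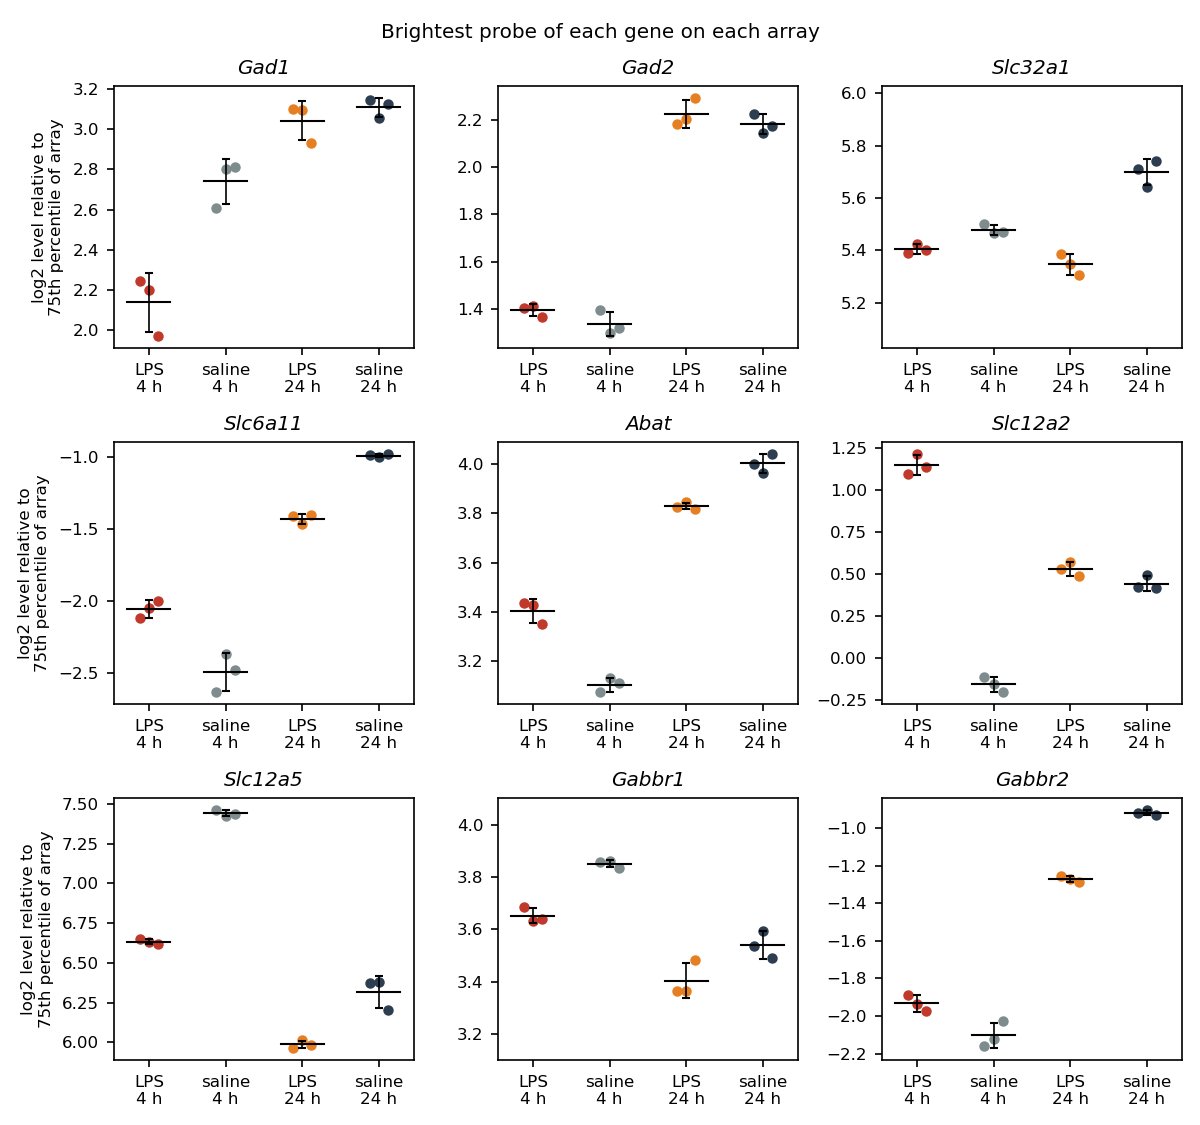
Level on each array (log2 relative to the 75th percentile of the array) of the brightest probe of each of the 9 genes, with points for arrays, long bars for group means and error bars of 1 SD (n = 3), LPS left of saline at each time. Slc12a2 lies at 1.10 to 1.21 on LPS 4 h arrays against -0.20 to -0.12 on saline 4 h arrays, and Slc6a11, Abat and Gabbr2 lie above saline at 4 h and below it at 24 h.

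Slc12a2 had the largest difference of the brightest member probes at 4 h. NKCC1, its product, loads chloride into immature neurons and is also present in glia, vessels and choroid plexus. The probe (A_51_P275527, chr18:58105712-58105771, mm9) read 1.10, 1.21 and 1.14 on LPS 4 h arrays against -0.12, -0.15 and -0.20 on saline 4 h arrays. It was higher on every LPS array, by 1.31 ± 0.04 (limma adjusted p = 3.96e-09), and within slides by 1.25 to 1.42. At 24 h it read 0.53, 0.57 and 0.49 on LPS arrays against 0.42, 0.49 and 0.41 on saline arrays. These overlapped, with a difference of 0.09 ± 0.04 (limma adjusted p = 0.126). The response at 24 h minus that at 4 h was -1.22 ± 0.06 (limma adjusted p = 9.47e-08). The value at 4 h was positive and past the threshold under all 14 alternative settings, from 0.71 to 1.42; the smallest was with the saline 24 h arrays as controls.

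Marker lists of cells that use NKCC1 were set beside that value. Of 9 choroid plexus and ependyma markers tested, 2 were higher and 6 lower at 4 h, and their summed level, in which bright probes weigh most, was 35.7 to 36.8 on LPS arrays against 42.0 to 43.8 on saline arrays. Of 9 endothelial markers, 1 was higher and 8 lower, with sums of 35.4 to 36.0 on LPS arrays against 69.0 to 69.96 on saline arrays. Of 14 oligodendrocyte markers, 3 were higher and 8 lower, with sums of 259 to 264 on LPS arrays against 304 to 309 on saline arrays. Of 12 astrocyte markers, 5 were higher and 5 lower, with sums of 431 to 446 on LPS arrays against 586 to 603 on saline arrays. Over all tested probes 31.4% were higher and 39.8% lower at 4 h. On the LPS 4 h arrays Slc12a2 was higher and the summed levels of these lists were lower, although each list held markers that were higher. All 9 choroid plexus and ependyma markers, all 14 oligodendrocyte markers and 8 of the 9 endothelial markers were well above background on all 12 arrays. The exception, Abcb1a, was well above background on 0 LPS and 0 saline arrays at 4 h, so its lower call at that time compares signals at background. The part of these cells in the Slc12a2 value was not tested.

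Slc12a5 encodes KCC2, the neuronal exporter of chloride. Its probe (A_52_P557129, chr2:164825109-164825168, mm9) read 6.65, 6.63 and 6.62 on LPS 4 h arrays against 7.46, 7.43 and 7.44 on saline 4 h arrays. It was lower on every LPS array, with a difference of -0.81 ± 0.05 (limma adjusted p = 1.33e-07). At 24 h it read 5.97, 6.01 and 5.98 on LPS arrays against 6.37, 6.38 and 6.20 on saline arrays. It was again lower on every LPS array, with a difference of -0.33 ± 0.05 (limma adjusted p = 0.000306). With scaling to the 75th percentile, Slc12a5 and Gabbr1 were the members whose brightest probe was lower at both times. For Gabbr1 the value at 4 h turned sign under 4 of 14 alternative settings, and the call at 24 h was lost under 8 of 14. Before scaling, the intensities of the Slc12a5 probe at 4 h were 65796 to 74168 on LPS arrays against 65519 to 68703 on saline arrays and overlapped. The Slc12a5 difference at 4 h therefore comes with the lower 75th percentile of the saline 4 h arrays. Against the saline 24 h arrays, the LPS 4 h arrays were higher for Slc12a5, by 0.31.

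Scaling an array by 1 factor does not alter the ratio of Slc12a2 to Slc12a5 within it, and only its difference between groups can be read. On log2 scale it was -5.55, -5.41 and -5.48 on LPS 4 h arrays against -7.58, -7.58 and -7.64 on saline 4 h arrays. That is higher after LPS by 2.12 ± 0.04 with no overlap (exact permutation p = 0.1, the smallest possible here). At 24 h it was -5.44, -5.44 and -5.50 on LPS arrays against -5.95, -5.89 and -5.79 on saline arrays. It was higher after LPS by 0.42 ± 0.05, again with no overlap (exact permutation p = 0.1). The ratio thus moved toward the inward cotransporter at both times, at 24 h mainly through the lower Slc12a5 value. The saline 4 h arrays had the lowest ratio of the groups. The LPS 4 h arrays were above the saline 24 h arrays too, but by much less. Before scaling, the mean Slc12a5 intensity was 66906 on saline 4 h and 69638 on LPS 4 h arrays. It was 63903 on saline 24 h and 54763 on LPS 24 h arrays. Whether this bright probe responds in proportion to its RNA was not tested, and the ratio is not protected from a response that does not.

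Gabbr1 has 3 tested probes, and they did not move together at 4 h. All 3 are shown, since they read different stretches of the mRNA; the second sequence lies in the part that encodes the sushi domains found in the long form GABA-B1a, the first in the part that encodes the coiled coil shared by both forms, and the third is given by its first 30 bases.
Gabbr1 A_51_P464900, chr17:37209174-37209232: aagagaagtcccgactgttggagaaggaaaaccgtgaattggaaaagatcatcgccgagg
Gabbr1 A_52_P592639, chr17:37183719-37184455: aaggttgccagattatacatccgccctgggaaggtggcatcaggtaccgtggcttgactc
Gabbr1 A_52_P16232, chr17:37210986-37211045: tacaatcatctctcaaaactactgcatctt
Positions are on mm9; the position of A_52_P592639 covers 737 bases for a probe of 60, so it crosses an intron. The brightest probe, A_52_P16232, read 3.69, 3.63 and 3.64 on LPS 4 h arrays against 3.86, 3.86 and 3.83 on saline 4 h arrays. It was lower on every LPS array, with a difference of -0.20 ± 0.04 (limma adjusted p = 0.00143). The probe A_51_P464900 read 1.15, 1.13 and 1.14 on LPS 4 h arrays against 0.61, 0.68 and 0.70 on saline 4 h arrays. It was higher on every LPS array, by 0.48 ± 0.04 (limma adjusted p = 3.19e-06).

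The probe in the sushi stretch, A_52_P592639, read -0.63, -0.53 and -0.59 on LPS 4 h arrays against -0.73, -0.70 and -0.66 on saline 4 h arrays. It was higher by 0.11 ± 0.04 (limma adjusted p = 0.0452), a call lost in 8 of the 12 fits that left out 1 array. Within arrays, the ratio of A_52_P16232 to A_51_P464900 was lower after LPS at 4 h, with a difference of -0.68 ± 0.04 and no overlap between LPS and saline (exact permutation p = 0.1). A direction for Gabbr1 as a gene at 4 h can therefore not be given. At 24 h, A_52_P16232 read 3.37, 3.37 and 3.48 on LPS arrays against 3.54, 3.59 and 3.49 on saline arrays. Its difference of -0.14 ± 0.04 passed (limma adjusted p = 0.0231), but not under 8 of 14 alternative settings or in 4 of the 12 fits without 1 array. A_52_P592639 was also lower at 24 h, at -0.21 ± 0.04 (limma adjusted p = 0.00331), and A_51_P464900 was not, at 0.01 ± 0.04 (limma adjusted p = 0.836).

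Gabbr2 encodes the subunit that couples the receptor to its G protein. The brightest probe (A_52_P111145, chr4:46677030-46677089, mm9) read -1.89, -1.94 and -1.97 on LPS 4 h arrays against -2.16, -2.12 and -2.03 on saline 4 h arrays. It was higher on every LPS array, by 0.17 ± 0.04 (limma adjusted p = 0.00264), but the call was lost with normexp, median or quantile scaling and in the deposited matrix, at 0.05, 0.01, 0.08 and 0.06. At 24 h it read -1.25, -1.27 and -1.29 on LPS arrays against -0.92, -0.90 and -0.93 on saline arrays. It was lower on every LPS array, with a difference of -0.35 ± 0.04 (limma adjusted p = 6.75e-05), or 1.28-fold. The second probe, A_52_P176616, 655 bases away, gave 0.25 ± 0.12 at 4 h (limma adjusted p = 0.0821) and -0.17 ± 0.12 at 24 h (limma adjusted p = 0.27), the same signs without passing. The probe of Gabbr2 that was not tested was well above background on 2 arrays, 1 LPS 4 h and 1 LPS 24 h array.

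The LPS groups are each set against saline arrays that themselves differed between times. Saline at 24 h against saline at 4 h was called for 14 of the 15 member probes, 12 higher and 2 lower, where 79.4% of all tested probes were called, 38.8% higher and 40.6% lower. These arrays did not overlap for any of the 15 member probes, against 81.5% of all probes without overlap. Among probes above background on all arrays, Gabbr1 A_51_P464900 differed by 1.51 ± 0.04, Slc6a11 A_51_P271311 by 1.502 ± 0.06 and Slc12a5 by -1.12 ± 0.05 (limma adjusted p from 4.18e-10 to 5.37e-09), each a larger difference than the same probe showed between LPS and saline at either time. When the LPS 4 h arrays were set against the saline 24 h arrays, which come from the other scan run, 10 of the 15 member differences changed sign. The differences that kept sign and call were those of Slc12a2, both Gad1 probes and Gad2 A_51_P452977. For the LPS 24 h arrays against the saline 4 h arrays 8 changed sign, and Slc32a1, Slc12a5 and Gabbr1 A_52_P16232 stayed lower and past the threshold.

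**Figure D4:**
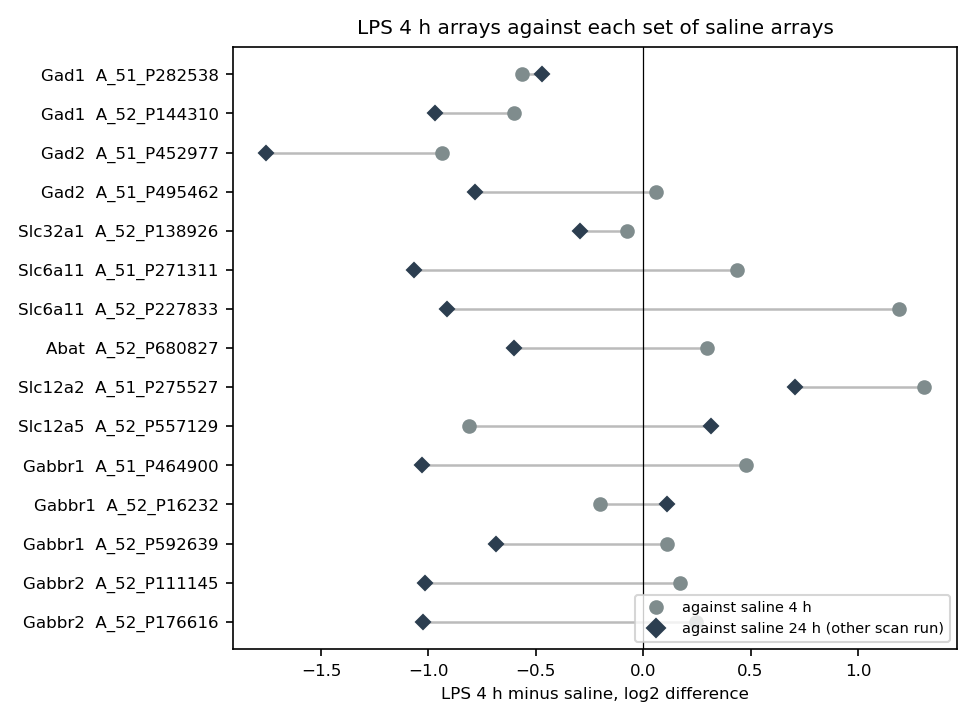
Difference (log2) of the LPS 4 h arrays from saline 4 h arrays (circles) and from saline 24 h arrays (diamonds) for each tested member probe, joined by a line, with 3 arrays per group. The line stays right of 0 for Slc12a2 and left of 0 for both Gad1 probes and Gad2 A_51_P452977, and it crosses 0 for 10 probes.

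Further genes of the same pathways, from lists of related genes, are described by 1 probe each. The list counts from here on are to be read beside the shares of all tested probes. At 4 h 31.4% of these were higher and 39.8% lower, and at 24 h 19.1% were higher and 23.7% lower. Among 10 other genes of GABA synthesis, uptake and breakdown, 5 were higher and 4 lower at 4 h (median 0.16), and 4 were higher and 2 lower at 24 h (median -0.02). Aldh5a1, which follows Abat in GABA breakdown, had a difference of -0.83 at 4 h and gave -0.004 at 24 h (limma adjusted p = 2.93e-07 and 0.961). Glul, the astrocytic glutamine synthetase, was higher at both times, by 0.63 and 0.26 (limma adjusted p = 8.9e-07 and 0.00139).

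Of 13 tested genes of chloride transport and its regulation, 7 were higher and 1 lower at 4 h (median 0.25), and 4 were higher and 2 lower at 24 h (median -0.01). Clcn3, an intracellular chloride and proton exchanger, differed by 1.45 at 4 h and by -0.21 at 24 h (limma adjusted p = 1.13e-09 and 0.00159). Wnk2, one of the WNK kinases that act on the SLC12 cotransporters, was higher by 0.98 at 4 h and gave -0.01 at 24 h (limma adjusted p = 3.32e-08 and 0.836). Slc12a9, a relative of the cotransporters, was higher by 0.47 and 0.24 (limma adjusted p = 3.13e-06 and 0.00127). Slc12a1 was on the array but did not pass the background rule, and Wnk3 was not matched to a probe.

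Of 12 partners and effectors of GABA-B receptors, 6 were higher and 5 lower at 4 h (median 0.06), and 1 was higher and 5 lower at 24 h (median -0.14). Among them Gnao1, the G protein alpha-o subunit, differed by 1.17 at 4 h and -0.30 at 24 h (limma adjusted p = 8.11e-09 and 0.000417). The potassium channel genes Kcnj3 and Kcnj9, whose products GABA-B receptors open, differed by 0.58 and -0.72 at 4 h (limma adjusted p = 3.81e-08 and 1.21e-07). At 24 h they gave 0.15 (limma adjusted p = 0.00137) and 0.05 (limma adjusted p = 0.403). Of 16 GABA-A receptor and inhibitory postsynapse genes, 9 were higher and 6 lower at 4 h (median 0.23), and 2 were higher and 9 lower at 24 h (median -0.16). Gabrg1 and Nlgn3 were higher at 4 h by 1.11 and 1.29, and Gabrd, the delta subunit of extrasynaptic receptors, was lower, at -1.25 (limma adjusted p from 3.68e-10 to 6.22e-09). All 3 had the opposite sign at 24 h, at -0.21 for Gabrg1, -0.17 for Nlgn3 and 0.29 for Gabrd (limma adjusted p from 0.000154 to 0.00199).

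**Figure D5:**
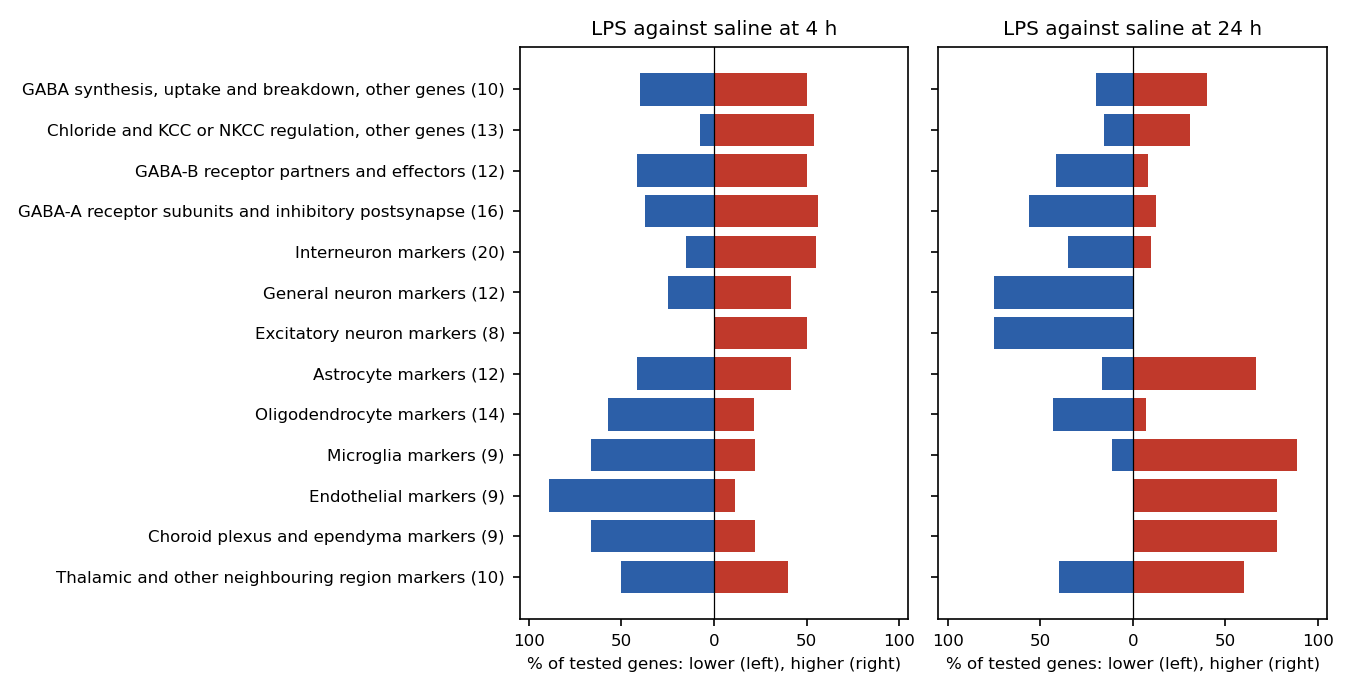
Share (%) of the tested genes of each list that were lower (left, blue) or higher (right, red) after LPS than after saline at an adjusted p under 0.05, at 4 h and at 24 h, with the number of genes tested in brackets. At 24 h the neuron lists extend to the left, with 9 of 12 general neuron markers lower, and the microglia list to the right, with 8 of 9 markers higher.

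At 24 h most neuron markers that passed were lower, and most astrocyte and microglia markers that passed were higher. Over all tested probes 19.1% were higher and 23.7% lower at that time. Of 20 interneuron markers, 7 were lower and 2 higher at 24 h (median -0.26), and their summed level was 106.8 to 108.9 on LPS arrays against 116.3 to 120.2 on saline arrays. Of 12 general neuron markers, 9 were lower and 0 higher (sums of 249.3 to 255 on LPS arrays against 289 to 293 on saline arrays). Of 8 excitatory neuron markers, 6 were lower and 0 higher (sums of 50.9 to 53.15 on LPS arrays against 63.8 to 69.0 on saline arrays). Of 12 astrocyte markers, 8 were higher and 2 lower (sums of 344 to 346 on LPS arrays against 314 to 320.3 on saline arrays), and of 9 microglia markers, 8 were higher and 1 lower (sums of 177 to 182 on LPS arrays against 123 to 128 on saline arrays). Slc32a1, Slc12a5 and Gabbr2 were lower at 24 h on the same arrays as many neuron markers, while Gad1 and Gad2 were not detected as changed. The part of these markers in the member values was not tested.

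Genes strongly expressed in the striatum, a forebrain region made up mostly of GABA neurons, also moved at 24 h. Drd1 read -2.04 to -1.92 on LPS 24 h arrays against -0.67 to -0.60 on saline 24 h arrays, Drd2 differed by -2.04 and Ppp1r1b by -0.63, and the interneuron and striatal peptide gene Tac1 by -1.40 (limma adjusted p from 6.74e-09 to 7.04e-06). Each of these genes was highest on the saline 24 h arrays. Saline at 24 h against saline at 4 h differed by 0.44 for Drd1, 2.96 for Drd2, 2.06 for Ppp1r1b and 1.75 for Tac1. The thalamic marker Tcf7l2 read 1.53 to 1.60 on LPS 4 h arrays against 2.79 to 2.96 on saline 4 h arrays, and -0.36 to -0.22 on LPS 24 h arrays against -0.50 to -0.42 on saline 24 h arrays. Of the 10 markers of thalamus, striatum and other neighbouring regions, 4 were higher and 5 lower at 4 h, and 6 were higher and 4 lower at 24 h, with sums at 24 h of 8.42 to 8.56 on LPS arrays against 9.50 to 9.77 on saline arrays. The levels of Slc32a1, Slc6a11, Abat, Slc12a5, Gabbr1 and Gabbr2 at 24 h were lower on the same LPS arrays on which Drd1, Drd2 and Ppp1r1b were lower, and the part of neighbouring tissue in these values was not tested.

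At 4 h the cell type markers moved in several directions, where 31.4% of all tested probes were higher and 39.8% lower. Of 20 interneuron markers, 11 were higher and 3 lower (median 0.27), with sums of 105.1 to 106.3 on LPS arrays against 175.2 to 177.4 on saline arrays. Cck alone accounts for the lower sum, at 75.8 to 76.7 on LPS arrays against 154.3 to 156 on saline arrays, and the other 19 markers summed to 29.1 to 29.6 on LPS arrays against 20.9 to 21.4 on saline arrays. Sst, the peptide of dendrite-targeting interneurons, differed by 1.49 and Cck by -1.02 (limma adjusted p = 5.65e-10 and 1.75e-09). Of 12 general neuron markers, 5 were higher and 3 lower, with Nefh, Map2 and Dlg4 higher by 0.92, 1.15 and 1.37. Of 8 excitatory markers, 4 were higher and 0 lower, with Slc17a7 and Camk2a higher by 1.13 and 1.01. Of 12 astrocyte markers, 5 were higher and 5 lower, with Gfap, S100b and Sox9 at -1.01, -0.78 and 0.75, and of 9 microglia markers, 2 were higher and 6 lower, with Cx3cr1, Aif1 and C1qa at -1.30, -0.84 and -0.21 (limma adjusted p of these named markers from 1.46e-09 to 0.000226). The lower scaled levels of Gad1 and of the Gad2 probe at 4 h thus came on arrays where most interneuron markers that passed were higher. The part of these markers in those levels was not tested.

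The named markers of the remaining lists differed as follows. Among oligodendrocyte markers Mag, Cnp and Olig2 gave -0.63, 1.44 and -0.92 at 4 h, and at 24 h 1 marker of 14 was higher and 6 lower. Among endothelial markers Cldn5, Tek and Kdr gave -3.09, -2.52 and -1.86 at 4 h, and at 24 h 7 of 9 were higher and 0 lower. Among choroid plexus and ependyma markers Folr1, Otx2 and Slc4a5 gave -0.42, -0.33 and -0.29 at 4 h, and at 24 h 7 of 9 were higher and 0 lower. Slc12a2, for which these lists were given, did not pass at 24 h.

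For each member, the gene outside the set whose level over the 12 arrays ran closest to it was found among 15091 genes, by the root mean square difference of mean-centred log2 values. Gad1 ran closest to Nagk (0.0722), Gad2 to Psap (0.0541) and Slc32a1 to Rmc1 (0.0334). Slc6a11 ran closest to Bcl11b (0.0736) and Abat to Arhgef4 (0.0416). Slc12a2 ran closest to Dusp6 (0.0719), which differed by 1.47 between LPS and saline at 4 h and by 0.11 at 24 h. Slc12a5 ran closest to Mapk8ip3 (0.0545), Gabbr1 to Acsl4 (0.0293) and Gabbr2 to Plcb1 (0.0510). These distances include the differences between the 4 h and 24 h arrays, which were scanned in separate runs.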

How the data were processed

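Cy3-labelled RNA of 12 hippocampi was measured on one-colour Agilent arrays. Per the file headers, the deposited intensity values were made with Agilent Feature Extraction 10.7.3.1, which subtracted background and left the arrays unscaled; version 9.1 is named in the submitters' processing notes. The authors' deposited matrix of log2 values was recomputed from the raw intensities by normexp (offset 50) and quantile normalization with a largest difference of 4.5e-10.

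Here, log2 of the processed signal minus the 75th percentile of each array was averaged over spots of a probe. Probes were kept where 1 or more groups had all 3 arrays well above background. The means of the 4 groups were fitted over 12 arrays with limma 3.58.1 in R 4.3.3, two-sided, with Benjamini-Hochberg adjustment over all 27671 tested probes and a threshold of 0.05. Differences are LPS minus saline, with the SE of the fit. A dim group's fold is a bound ("at least"), set by the dimmest signal that was well above background there or the probe's own. Precision rests on 3 arrays a group. The fitting procedure was tested on simulated data.

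A member is described by its brightest probe, with its other probes beside it; of each list, up to 3 genes with the smallest adjusted p are named, by their brightest probe. A few genes that this rule picks are not reported here. The members and lists were chosen with earlier results of these data known. Alternatives changed the scaling, the background correction, the source (the deposited matrix), the rule on dim probes, the choice of probe, the arrays fitted, the blocks, the control arrays and the moderation, and left out each array. Probe positions are those in the files (mm9), and an annotation of that build was not used here.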

Additional observations from a re-analysis of the deposited data

Results flagged for a closer look

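The LPS response at 24 h minus that at 4 h was tested within the same limma fit, and 12 of the 15 member probes passed, 4 higher and 8 lower, where 65.8% of all tested probes passed. All 24 h arrays were scanned in another run than the 4 h arrays, and the part of the scan run in these differences was not tested. The difference was positive where the lower level at 4 h was smaller or not detected at 24 h: 0.54 for Gad1 A_52_P144310, 0.52 for Gad1 A_51_P282538, 0.89 for Gad2 A_51_P452977 and 0.48 for Slc12a5. It was negative where the level was higher at 4 h and lower or not detected as changed at 24 h: -1.22 for Slc12a2, -0.87 for Slc6a11 A_51_P271311, -0.47 for Abat, -0.47 for Gabbr1 A_51_P464900, -0.32 for Gabbr1 A_52_P592639 and -0.52 for Gabbr2 A_52_P111145. Gabbr2 A_52_P176616 gave -0.42 without passing at either time, and 9 of the 12 fits without 1 array lost its call. Slc32a1 gave -0.28, from -0.07 at 4 h and -0.35 at 24 h. Slc12a5 lost its difference between times with quantile normalization (-0.06) and in the deposited matrix (-0.06).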

How the results depend on the processing

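Of the 15 member probes, the calls of Slc12a2, both Gad1 probes and Gad2 A_51_P452977 at 4 h, and of Slc32a1 and Slc12a5 at 24 h, kept direction and threshold under every alternative run and in all 12 fits without 1 array. Where a value below turned sign or a count moved, the cause was not tested. With normexp background correction 3 member probes were higher at 4 h, 3 were called at 24 h, all 3 lower, and Slc6a11 A_52_P227833 gave -0.0126 at 4 h and -0.0905 for saline at 24 h against 4 h. Over all probes that setting called 43.6% at 4 h (15.9% higher), 16.1% at 24 h (7.26% higher, 8.80% lower) and 36.4% for the difference between times (21.4% higher, 15.0% lower), with 20.5% higher for saline at 24 h against 4 h. Without a filter, 20.6% were higher at 4 h, 27.3% were called and 14.4% lower at 24 h, and 18.5% were lower for the difference between times. Scaling to the median gave -0.0524 for Gabbr1 A_52_P592639 at 4 h, moved the median of all probes at 4 h to -0.25 and left 32.7% of calls there higher, against 44.1% with the 75th percentile, 36.5% with normexp and 53.2% with the 75th percentile of probes above background on all arrays. The last setting also called 1 member probe higher at 24 h, where 52.8% of the calls over all probes were higher. Quantile normalization gave 0.0726 for Gabbr1 A_52_P16232 and 0.32 for Slc32a1 at 4 h, -0.17 for Gabbr1 A_52_P16232 and -0.0598 for Slc12a5 for the difference between times, and 0.13 for Gabbr1 A_52_P16232 and 0.24 for Gad1 A_51_P282538 for saline at 24 h against 4 h, where 1 member probe was lower. The deposited matrix gave 0.058 and 0.34 for Gabbr1 A_52_P16232 and Slc32a1 at 4 h, -0.0566 for Slc12a5 for the difference between times, and 0.13 and 0.25 for Gabbr1 A_52_P16232 and Gad1 A_51_P282538 for saline at 24 h against 4 h, again with 1 member probe lower. Over all probes, quantile normalization and the deposited matrix left 50.8% and 51.3% of the calls for saline at 24 h against 4 h higher. Averaging the probes of a gene gave 0.13 for Gabbr1 and -0.44 for Gad2 at 4 h, -0.24 and 0.44 for the difference between times, and 0.66 for Gabbr1 for saline at 24 h against 4 h.

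With the saline 24 h arrays as controls of the LPS 4 h arrays, 3 member probes were higher and 11 lower, where 47.7% of the calls over all probes were higher. The signs turned for Gad2 A_51_P495462 (-0.78), Slc6a11 A_51_P271311 (-1.07), Slc6a11 A_52_P227833 (-0.91), Abat (-0.60), Slc12a5 (0.31), Gabbr1 A_51_P464900 (-1.03), Gabbr1 A_52_P16232 (0.11), Gabbr1 A_52_P592639 (-0.69), Gabbr2 A_52_P111145 (-1.02) and Gabbr2 A_52_P176616 (-1.02). With the saline 4 h arrays as controls of the LPS 24 h arrays, all 15 were called, 11 higher and 4 lower, against 79.9% of all probes (39.9% higher, 40.0% lower). The signs turned for Gad1 A_52_P144310 (0.30), Gad2 A_51_P452977 (0.77), Slc6a11 A_51_P271311 (1.07), Slc6a11 A_52_P227833 (1.98), Abat (0.73), Gabbr1 A_52_P592639 (0.58), Gabbr2 A_52_P111145 (0.83) and Gabbr2 A_52_P176616 (1.10). In the fits without 1 array, 10 to 13 member probes were called at 4 h and 6 to 8 at 24 h, against 67.6% to 71.8% and 37.6% to 43.6% of all probes. Deviations of LPS and saline arrays of the same replicate number correlated at -0.15 to 0.17 at 4 h and 0.03 to 0.08 at 24 h. At 24 h these arrays also shared a slide, and arrays of unlike numbers gave -0.06 to 0.006. Such values cannot show whether the mice were paired, and the labels state no pairing. With the replicate number as a block, the values kept their size, Gabbr1 A_52_P592639 lost its call at 4 h (0.11), Gabbr2 A_52_P176616 gained one (0.25), and Gabbr1 A_52_P16232 lost its call at 24 h (-0.14). With slide as a block, only the last of these was lost among the 15 probes of each comparison with LPS. A block by scan day could not be fitted, because each day holds 1 time. The dim probe Slc6a11 A_52_P227833 and the 4 untested probes are limited by signal over background.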

Other observations

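The RefSeq table of promoters on GRCm38.p6 held 8 start regions for 7 of the 9 members, each from 250 bases before the start to 50 after it. Both strands were searched for a STAT motif (TTCCNGGAA, in 1.15% of 32851 start regions), a CRE (TGACGTCA, 1.79%), a GC box (GGGCGG, 35.7%), a TATA box (TATAAA, 13.6%), an E box (CACGTG, 7.15%) and a kappa B motif (0.155%). The STAT motif, the CRE and the kappa B motif were not found in the 8 regions, which says only that these letters are not in these windows. The GC box was found 4 times for Slc6a11, 3 times for Gabbr1, 2 times for Gabbr2, once for Gad1 and once in each region of Slc12a5, and 0 times for Gad2 and Slc32a1. The TATA box was found once, for Gad1, and the E box once, in 1 of the 2 regions of Slc12a5.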
